A study of Homo sapiens with 12 samples.

Results

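OCM1 is an established human uveal melanoma cell line, and CANT1 is a long noncoding RNA transcribed from the CASC15 locus. OCM1 cells overexpressing CANT1 were compared here with wild type OCM1 cells. These were chosen as every OCM1 array of a series of 12 Affymetrix PrimeView arrays: 6 arrays, 3 of CANT1 cells and 3 of wild type cells, with 6 of a second uveal melanoma line, MUM2B, as the other 6. Control OCM1 cells are labelled wild type in every replicate, in replicates 2 and 3 under the genotype entry control, and the CANT1 cells of replicate 1 are described as selected with puromycin. Both groups of replicates 2 and 3 carry a growth label of DMEM with 10% FBS. No empty vector is described, so an effect of CANT1 cannot be told apart from one of the vector or of selection, and the labels do not say whether the overexpressing cells are 1 clone. They do not say either that the replicates are separate cultures, so that p-values reflect array-to-array spread, and this may be technical. Replicates 2 and 3, with 2 arrays a side, carry the comparison, and the replicate 1 pair is given beside it with no test. Each gene is represented by the brightest of its probe sets that name 1 gene, and a level is log2(scaled signal + 32), so that a difference of 1 is a doubling for a bright gene and the changes of dim genes are understated.

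Long noncoding RNAs of this kind act without being translated, and some bind chromatin or RNA near or far from the site where they are made. The CASC15 locus lies beside SOX4, the gene of a transcription factor of progenitor cells. Pigment cells make melanin in melanosomes, and their genes are driven by MITF. In melanoma cells growth depends on ERK signalling, whose feedback inhibitors are themselves ERK targets. The symbol CANT1 on the array belongs to an unrelated nucleotidase gene, so the overexpressed RNA itself was not followed. CASC15 has 1 probe set, at a level of 5.49 to 5.64 on the 6 arrays, which may lie outside the overexpressed transcript and so checks nothing.

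The wild type array of replicate 1 stood apart from its line. Its mean correlation with the other OCM1 arrays was 0.828, against 0.936 to 0.950 for the other 5, and arrays of 1 group in replicates 2 and 3 correlated at 0.996. The 7 melanocyte markers looked at all reached a signal of 100 on all 6 arrays, and their summed signal was 14273 on that array and 75366 to 81860 on the other 5. Of the markers of other cells, 4 to 5 of 11 epithelial, 1 to 3 of 10 fibroblast, 3 to 5 of 9 endothelial and 2 to 4 of 11 leukocyte genes reached a signal of 100 on an array. The summed signals were 1179 to 1677, 638 to 1943, 713 to 1294 and 759 to 1310. Few of these markers of other cells were bright enough to be tested: 4 epithelial, 3 fibroblast, 3 endothelial and 4 leukocyte genes. Of them 0 rose, and ESRP1, an epithelial splicing factor, fell by 0.33 and FAP, a fibroblast protease, by 1.04. The log2 ratio of 3′ to 5′ ACTB signal, a measure of RNA quality, was 0.75 and 0.67 on the wild type arrays of replicates 2 and 3 and 0.91 and 0.84 on the CANT1 arrays. On the replicate 1 pair it was 2.51 for wild type and 2.30 for CANT1, and the same ratio for GAPDH was 0.33 and 0.27 there, against 0.031 to 0.035 on the 4 arrays of replicates 2 and 3. The part of these ratios in the results below was not tested.

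Of 18132 genes on the array, 11771 reached a signal of 100 on 2 or more of the 4 OCM1 arrays of replicates 2 and 3 and were tested. CANT1 cells had higher levels of 1690 of them (14.4%) and lower levels of 1192 (10.1%) by limma at a Benjamini-Hochberg adjusted p of 0.05. Most of these differences were small: 177 increases and 37 decreases were at least 2-fold, and 22 and 2 were at least 4-fold. Increases made up 58.6% of the calls, and 47.6% when the values were used as deposited without rescaling. Without CANT1 replicate 2 the counts were 929 higher and 523 lower, and without wild type replicate 2 or 3 the lower count was 761 or 606. Genes that reveal sex stay in these counts and are not named. Of the tested genes, 199 passed the filter only through the CANT1 arrays (148 of them called higher) and 51 only through the wild type arrays (26 called lower); such genes had to differ, and their differences rest on a dim group.

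SERPINA3, the gene of the secreted protease inhibitor alpha-1-antichymotrypsin, had the largest increase among genes reported here. Its level was 8.86 and 8.43 on the wild type arrays and 14.18 and 13.70 on the CANT1 arrays of replicates 2 and 3, a 39.1-fold difference with a log2 value of 5.29 (SE 0.19, adjusted p = 1.53e-08). APOC2, the lipoprotein lipase cofactor, read 7.02 and 6.97 on the wild type arrays and 11.08 and 11.02 on the CANT1 arrays, a difference of 4.06 (SE 0.09, adjusted p = 3.03e-10). SFRP1, a secreted antagonist of Wnt ligands, read 8.70 and 8.82 on the wild type arrays and 11.88 and 11.99 on the CANT1 arrays, a difference of 3.17 (SE 0.093, adjusted p = 3.53e-09). In all 3, picked by size of increase, both CANT1 arrays lay above both wild type arrays, as they did for 36.6% of all tested genes. The replicate 1 pair was higher with CANT1 too, by 1.15, 2.78 and 4.43. Since these are bulk RNA measurements, a change in RNA per cell and a change in the number of cells that express a gene cannot be told apart.

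SYTL2, which links vesicles and melanosomes to the plasma membrane, and UCHL1, a neuronal ubiquitin hydrolase, were near the floor of the scale on wild type arrays. SYTL2 read 6.06 and 6.32 on the wild type arrays and 11.02 and 11.04 on the CANT1 arrays, a difference of 4.84 (SE 0.11, adjusted p = 3.03e-10). UCHL1 read 5.95 and 5.99 on the wild type arrays and 8.55 and 8.76 on the CANT1 arrays, a difference of 2.69 (SE 0.098, adjusted p = 1.84e-08). Both passed the filter through the CANT1 arrays alone, as did APOC2, CA2 and DSP. CA2, a cytosolic carbonic anhydrase, differed by 2.76 (SE 0.14, adjusted p = 2.78e-07), and DSP, the desmosomal plaque protein desmoplakin, by 2.62 (SE 0.13, adjusted p = 2.73e-07). ALDH1A3, which oxidises retinaldehyde to retinoic acid, went from 10.26 and 10.10 to 12.87 and 12.74, an increase of 2.63 (SE 0.10, adjusted p = 2.8e-08). A2M, a broad protease inhibitor of plasma, went from 9.29 and 9.18 to 12.02 and 11.69 (2.62 (SE 0.13, adjusted p = 2.49e-07)), and APOD, a lipocalin, from 8.26 and 8.48 to 11.18 and 10.51 (2.48 (SE 0.18, adjusted p = 5e-06)). SERPINI1, a neuronal serpin, rose by 2.39 (SE 0.11, adjusted p = 1.55e-07). BST2, the 12th of these genes, is described with the interferon genes. The 12 were picked by size of increase, so separate groups were close to given. Their groups of replicates 2 and 3 did not overlap in any gene, an order that 36.6% of all tested genes shared. Probe sets of 1 gene did not always move alike: the 5 for ALDH1A3 ran from 0.32 to 2.85, the 3 for APOD from 0.12 to 2.48, and the 2 for SYTL2 from 1.40 to 4.84.

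**Figure D1:**
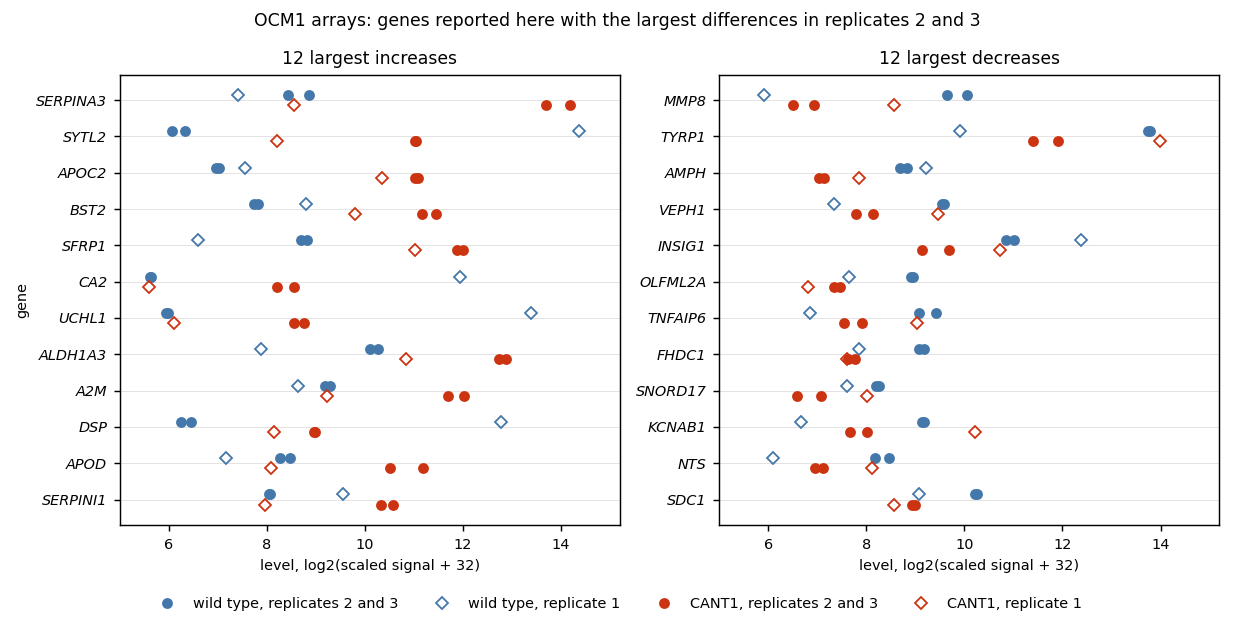
Level, as log2(scaled signal + 32), of the 12 largest increases (left) and 12 largest decreases (right) on each OCM1 array. Filled circles are replicates 2 and 3 and open diamonds are replicate 1, blue for wild type and red for CANT1. The filled groups separate in every gene. Genes whose diamonds lie in the opposite order include SYTL2, CA2, UCHL1, DSP, MMP8, TYRP1, VEPH1, TNFAIP6, KCNAB1 and NTS.

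The largest decrease was of MMP8, a collagenase best known from neutrophils. MMP8 read 10.05 and 9.65 on the wild type arrays and 6.50 and 6.94 on the CANT1 arrays, a 8.75-fold decrease with a log2 value of -3.13 (SE 0.15, adjusted p = 2.49e-07), and it passed the filter through the wild type arrays only. TYRP1, a melanosome enzyme that stabilises tyrosinase, read 13.74 and 13.78 on the wild type arrays and 11.40 and 11.91 on the CANT1 arrays, a difference of -2.11 (SE 0.14, adjusted p = 1.76e-06). AMPH, a protein that bends membranes in endocytosis, went from 8.69 and 8.83 to 7.03 and 7.13 (-1.68 (SE 0.093, adjusted p = 5.35e-07)). In each of these genes, picked by size of decrease, both wild type arrays lay above both CANT1 arrays, as in 27.9% of all tested genes. INSIG1, which holds the sterol sensor in the endoplasmic reticulum, fell by 1.53 (SE 0.21, adjusted p = 0.000403). VEPH1, a membrane-binding protein, fell by 1.59 (SE 0.12, adjusted p = 4.5e-06), with its 3 probe sets between -1.59 and 0.11. The extracellular proteins OLFML2A and TNFAIP6, a hyaluronan binder, fell by 1.52 (SE 0.13, adjusted p = 2.02e-05) and 1.52 (SE 0.14, adjusted p = 3.14e-05). FHDC1, a formin, fell by 1.43 (SE 0.14, adjusted p = 3.56e-05), and the small nucleolar RNA gene SNORD17 by 1.39 (SE 0.15, adjusted p = 6.46e-05). KCNAB1, a potassium channel subunit, fell by 1.32 (SE 0.15, adjusted p = 9.9e-05), NTS, the precursor of the peptide neurotensin, by 1.29 (SE 0.13, adjusted p = 6.05e-05), and SDC1, the heparan sulfate proteoglycan syndecan, by 1.28 (SE 0.097, adjusted p = 5.77e-06).

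The replicate 1 pair did not follow these differences closely. Its median difference over the tested genes was -0.049, against 0.037 in replicates 2 and 3, and 2396 genes differed by at least 1 in it, 1224 higher and 1172 lower. It had the same sign for 679 of the 1690 increases (40.2%) and 474 of the 1192 decreases (39.8%). Of all tested genes, 44.7% were above zero in it and 55.3% below, so the increases were near that background and the decreases under it. Among the increases, 230 were also higher by at least 1 in replicate 1 and 351 were lower by at least 1. Among the decreases, 78 were lower by that much in replicate 1 and 267 were higher. Across the 11771 genes, which are not independent replicates, the 2 differences correlated at r = -0.20.

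Genes that rose in replicates 2 and 3 and were higher by at least 1 in replicate 1 were led by SFRP1, APOC2 and ALDH1A3, given above. MGP, an inhibitor of calcification in matrix, read 10.60 and 10.52 on the wild type arrays and 12.93 and 12.55 on the CANT1 arrays of replicates 2 and 3 and 6.32 and 11.17 on the wild type and CANT1 arrays of replicate 1. FSTL5, a follistatin-like secreted protein, read 5.85 and 5.65 on the wild type arrays and 7.55 and 7.85 on the CANT1 arrays, and 5.72 and 7.92 on the replicate 1 pair. FSTL5 passed the filter through the CANT1 arrays alone. HSBP1L1, a paralog of a heat shock factor binding protein, read 7.24 and 7.63 on the wild type arrays and 9.09 and 9.09 on the CANT1 arrays, and 7.48 and 10.02. In each of these, all 3 CANT1 arrays lay above the wild type array or arrays of their own set. They were picked for a rise in both sets, so this order was close to given and is no further support. In replicates 2 and 3 alone 36.6% of all tested genes shared it. The differences in replicates 2 and 3 were 2.18 (SE 0.13, adjusted p = 1.02e-06) for MGP, 1.95 (SE 0.12, adjusted p = 9.54e-07) for FSTL5 and 1.66 (SE 0.13, adjusted p = 6.14e-06) for HSBP1L1.

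Genes that fell in replicates 2 and 3 and were lower by at least 1 in replicate 1 were led by INSIG1, AMPH, UBE2C, AARS1, AUTS2 and MTHFD1L. INSIG1 stood at 12.37 and 10.73 on the replicate 1 pair and AMPH at 9.22 and 7.85. UBE2C, the ubiquitin-conjugating enzyme of the anaphase-promoting complex, read 11.25 and 11.27 on the wild type arrays and 10.14 and 10.37 on the CANT1 arrays, and 12.68 and 11.15 on the replicate 1 pair. AARS1, the alanyl-tRNA synthetase, fell by 0.98 (SE 0.099, adjusted p = 5.03e-05) against a replicate 1 difference of -1.85. AUTS2, a neuronal chromatin regulator, fell by 0.94 (SE 0.12, adjusted p = 0.000244) against a replicate 1 difference of -3.75, and MTHFD1L, a mitochondrial folate enzyme, by 0.80 (SE 0.093, adjusted p = 0.000132) against -2.67.

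The genes with the sharpest reversal were dim on the wild type arrays of replicates 2 and 3 and bright on the wild type array of replicate 1. SYTL2 stood at 14.37 on that array and 8.20 on its CANT1 partner, CA2 at 11.93 and 5.59, and UCHL1 at 13.38 and 6.11. DSP stood at 12.78 and 8.14, and GJA1, the gap junction protein connexin 43, at 12.11 and 5.51, while GJA1 rose by 2.23 (SE 0.12, adjusted p = 4.13e-07) in replicates 2 and 3. ELMOD1, a GTPase-activating protein, rose by 2.33 (SE 0.099, adjusted p = 7.03e-08) and differed by -2.42 in replicate 1. On the linear scale, the rise in replicates 2 and 3 corresponded to 9.51% of the replicate 1 wild type signal for SYTL2, 7.37% for CA2, 3.21% for UCHL1, 5.99% for DSP, 4.22% for GJA1 and 26.7% for ELMOD1.

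Over the whole array, genes far lower in replicate 1 lay mostly above zero in replicates 2 and 3. Of 62 genes on the array that were at least 4 lower with CANT1 in replicate 1, 60 (96.8%) lay above zero in replicates 2 and 3, with a median of 0.70, against 57.3% of all 18132 genes and a median of 0.028. The signal filter was not used for these shares. Of 365 genes that were 2 to 4 lower, 305 lay above zero (83.6%). At the other end the shares were 159 of 323 genes (49.2%) for those 2 to 4 higher in replicate 1 and 5 of 17 (29.4%) for those over 4 higher, so that the larger of these bins lay near an even split. The genes named by the rule for opposite decreases were MMP8 (5.92 on the wild type and 8.57 on the CANT1 array of replicate 1), TYRP1 (9.90 and 13.99) and KCNAB1 (6.68 and 10.22), with VEPH1, TNFAIP6 and NTS at replicate 1 differences of 2.13, 2.18 and 2.02.

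**Figure D2:**
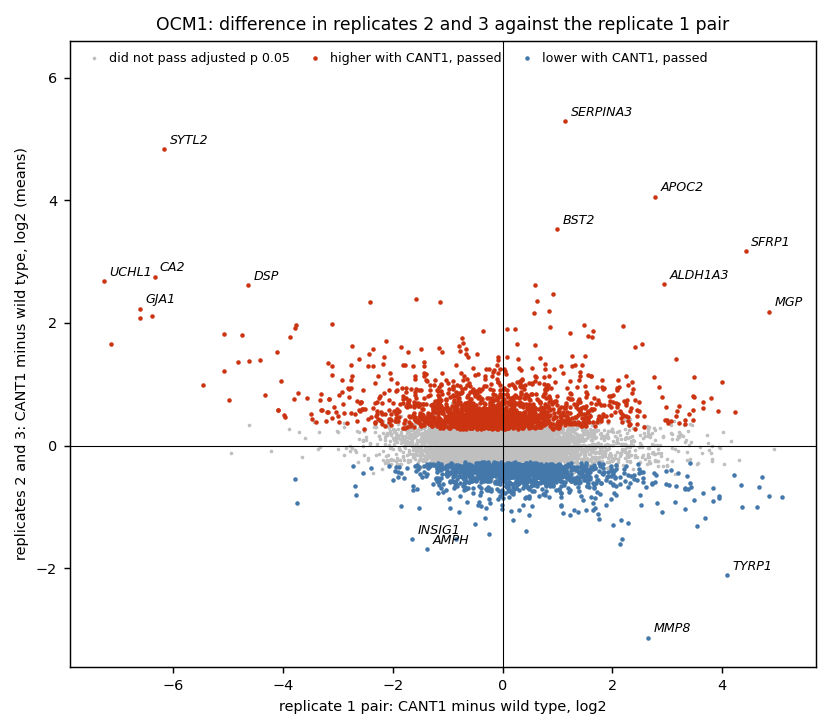
Difference of CANT1 minus wild type in OCM1 replicates 2 and 3 (vertical, log2) against that of the replicate 1 pair (horizontal, log2), 1 point per tested gene reported here. Red and blue points passed an adjusted p of 0.05; SFRP1, APOC2, ALDH1A3 and MGP lie high in both sets, and SYTL2, CA2, UCHL1, GJA1 and DSP lie at the upper left.

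Pigment genes split in replicates 2 and 3. Of 12 tested genes of melanosome enzymes, matrix and transporters, 3 rose and 4 fell, with a median difference of -0.25, against 14.4% and 10.1% of all tested genes and a median of 0.037. TYRP1 led the decreases, while TYR, tyrosinase itself, read 13.84 and 13.93 on the wild type arrays and 13.87 and 13.93 on the CANT1 arrays and did not pass (0.013 (SE 0.10, adjusted p = 0.947)). MLANA, a melanosome membrane protein and the antigen MART-1, did not pass either (-0.095 (SE 0.12, adjusted p = 0.618)). PMEL, the fibrillar matrix of the melanosome, rose by 0.46 (SE 0.094, adjusted p = 0.00436), and GPNMB, a related glycoprotein, fell by 0.67 (SE 0.092, adjusted p = 0.000435). All 12 were higher with CANT1 on the replicate 1 pair, with a median of 2.90, where the wild type array was the 1 with low melanocyte markers. Without CANT1 replicate 3 the increases numbered 1, and without wild type replicate 2 or CANT1 replicate 2 the decreases numbered 2.

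Of 18 genes of melanosome biogenesis and transport 2 rose (11.1%), SYTL2 among them, and 4 fell (22.2%), against 14.4% and 10.1% of all tested genes. MYO5A, the motor that carries melanosomes along actin, went from 11.92 and 11.79 to 11.24 and 11.29 (-0.59 (SE 0.10, adjusted p = 0.00161)), and RAB32, a GTPase of melanosome biogenesis, from 10.95 and 10.97 to 10.26 and 10.40 (-0.63 (SE 0.092, adjusted p = 0.00063)). Of 16 lineage factors, receptors and adhesion genes 4 rose and 3 fell, at a median of 0.022. MITF read 11.99 and 11.89 on the wild type arrays and 12.19 and 12.38 on the CANT1 arrays and did not pass (0.34 (SE 0.13, adjusted p = 0.0847)), although it did under 6 of 24 alternatives, OCM1 arrays alone among them (adjusted p = 0.036). Over the 24 its adjusted p ran from 0.0252 to 0.503. EDNRB, the endothelin receptor of melanocytes, rose by 0.56 (SE 0.099, adjusted p = 0.00205), and LEF1, a partner of MITF and effector of Wnt signalling, by 0.64 (SE 0.11, adjusted p = 0.00172). S100B, a calcium-binding melanoma marker, rose by 0.56 (SE 0.12, adjusted p = 0.00538), and its adjusted p was 0.0504 without CANT1 replicate 2. The 4 increases became 2 without that array, and the 3 decreases 0 without wild type replicate 3 and 1 without CANT1 replicate 3.

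Most cell division genes were lower with CANT1. Of 36 tested genes of mitotic kinases, cyclins, spindle and kinetochore, 27 fell (75.0%) and 0 rose (0 also at an unadjusted p under 0.05), with a median of -0.45 and 3 members above zero. Among all tested genes 10.1% fell and 14.4% rose. CENPF, a kinetochore protein, read 11.34 and 11.40 on the wild type arrays and 10.47 and 10.57 on the CANT1 arrays, a difference of -0.85 (SE 0.092, adjusted p = 8.08e-05). CCNB2, a B-type cyclin that activates the mitotic kinase, read 11.54 and 11.55 on the wild type arrays and 10.63 and 10.88 on the CANT1 arrays, a difference of -0.79 (SE 0.11, adjusted p = 0.000389). HMMR, a spindle and hyaluronan receptor protein, read 11.99 and 11.85 on the wild type arrays and 11.10 and 11.36 on the CANT1 arrays, a difference of -0.69 (SE 0.11, adjusted p = 0.00103). In each the wild type arrays were the higher ones, as in 27.9% of all tested genes, and the CANT1 replicate 2 array was the lowest. The count of 27 was 16 without CANT1 replicate 2. In replicate 1 the list's median was -0.022, with 18 members above zero.

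Promoters of many mitotic genes are known to hold a cell cycle homology region, TTTGAA, and CCAAT boxes. The CCNB2 promoter is shown because it holds both, over the 250 bases before the RefSeq start at chr15:59104896-59105145 (plus strand, GRCh38.p14), with matches on either strand in capitals.
CCNB2: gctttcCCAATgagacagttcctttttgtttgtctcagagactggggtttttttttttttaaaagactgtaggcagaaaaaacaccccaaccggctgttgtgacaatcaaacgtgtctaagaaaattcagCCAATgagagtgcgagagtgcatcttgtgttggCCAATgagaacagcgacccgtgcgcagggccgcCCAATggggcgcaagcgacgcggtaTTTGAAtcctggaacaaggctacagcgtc
Of 31 list members with a promoter in the table, 24 (77.4%) held TTTGAA on either strand within 300 bases, 250 before and 50 after the start, against 13.7% of 9701 tested genes with a promoter. CCAAT on either strand was in 25 of the 31 (80.6%) against 43.0%. Of the 22 members that fell and had a promoter, 16 held the first motif and 17 the second. A match describes letters and not binding.

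Many DNA replication genes fell as well. Of 37 genes of licensing, fork and nucleotide supply 19 fell (51.4%) and 0 rose (0 also unadjusted), at a median of -0.40. The shares of all tested genes were 10.1% and 14.4%. CDC45, part of the replicative helicase, read 9.54 and 9.40 on the wild type arrays and 8.69 and 8.74 on the CANT1 arrays, a difference of -0.76 (SE 0.14, adjusted p = 0.0022). POLA2, a subunit of the primase complex, went from 9.45 and 9.48 to 8.69 and 8.79 (-0.72 (SE 0.092, adjusted p = 0.000253)), and UNG, which removes uracil from DNA, from 10.36 and 10.49 to 9.64 and 9.76 (-0.72 (SE 0.14, adjusted p = 0.00363)). The licensing helicase subunits MCM5 and MCM7 fell by 0.76 (SE 0.12, adjusted p = 0.000954) and 0.71 (SE 0.10, adjusted p = 0.00067). The count of 19 was 11 without wild type replicate 2, 10 without wild type replicate 3 and 9 without CANT1 replicate 2. On the replicate 1 pair the median was -0.35, with 9 of 37 members above zero.

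Among 25 genes of G1 control 4 rose and 7 fell. The share that rose was near the 14.4% of all tested genes, and the share that fell was above their 10.1%. CDK2, the kinase of S phase entry, read 11.37 and 11.46 on the wild type arrays and 10.30 and 10.62 on the CANT1 arrays, a difference of -0.96 (SE 0.13, adjusted p = 0.000332). MYC, a growth transcription factor, fell by 0.77 (SE 0.10, adjusted p = 0.000405), whereas CCND1, the gene of cyclin D1, rose by 0.84 (SE 0.097, adjusted p = 0.000118). MXD4, which opposes MYC at its binding sites, rose by 0.62 (SE 0.1, adjusted p = 0.00108), and CDKN1A, the CDK inhibitor p21, by 0.49 (SE 0.11, adjusted p = 0.0079). CDKN1A had an adjusted p of 0.079 without wild type replicate 3 and 0.053 without CANT1 replicate 2. The 7 decreases became 4 without either wild type array and 3 without CANT1 replicate 2.

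Sterol synthesis genes were lower in part with CANT1. Of 24 genes of sterol synthesis, uptake and its regulation 12 fell and 1 rose, at a median of -0.25. INSIG1 read 11.01 and 10.85 on the wild type arrays and 9.12 and 9.69 on the CANT1 arrays, the lowest value on CANT1 replicate 2. ACAT2, which starts the pathway from acetyl-CoA, read 11.47 and 11.60 on the wild type arrays and 10.50 and 10.64 on the CANT1 arrays, a difference of -0.96 (SE 0.12, adjusted p = 0.000281). HMGCS1, the synthase of HMG-CoA, read 9.84 and 10.01 on the wild type arrays and 9.02 and 8.89 on the CANT1 arrays, a difference of -0.97 (SE 0.21, adjusted p = 0.00636), and its adjusted p was 0.053 without wild type replicate 3. In all of these the 2 CANT1 arrays lay below both wild type arrays, as in 27.9% of all tested genes. The late enzymes EBP and MSMO1 fell by 0.87 (SE 0.11, adjusted p = 0.000218) and 0.80 (SE 0.16, adjusted p = 0.00429). INSIG2, the paralog of INSIG1, rose by 0.38 (SE 0.11, adjusted p = 0.0276), a call lost without either wild type array or CANT1 replicate 3 (adjusted p = 0.094 to 0.175). The count of 12 was 6 without wild type replicate 3 and 7 without CANT1 replicate 2, and the list's median in replicate 1 was -0.095.

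The INSIG1 promoter is shown as that of the strongest decrease of the list, over the 250 bases before the start at chr7:155297628-155297877 (plus strand, GRCh38.p14), with CCAAT on either strand in capitals.
INSIG1: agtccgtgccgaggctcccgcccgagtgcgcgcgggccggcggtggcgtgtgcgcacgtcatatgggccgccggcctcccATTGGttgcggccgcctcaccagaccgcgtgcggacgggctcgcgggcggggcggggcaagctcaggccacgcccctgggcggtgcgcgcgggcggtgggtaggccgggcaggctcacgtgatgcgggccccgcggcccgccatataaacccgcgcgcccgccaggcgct
Sterol response elements bind the SREBP factors, often beside a CCAAT box. The sterol response letters TCACNCCAC were found in the 300-base windows of 1 of 22 members with a promoter (4.55%), against 1.48% of the 9701 genes. CCAAT was in 17 of the 22 (77.3%) against 43.0%, and in all 10 of the members that fell and had a promoter. On the sense strand alone it was in 8 of the 22 (36.4%) against 25.4%, and in 6 of the 10.

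Some chaperone genes were lower too. Of 29 heat shock proteins and cochaperones 12 fell (41.4%) and 3 rose (10.3%), against 10.1% and 14.4% of all tested genes, at a median of -0.19. CHORDC1, a cochaperone of HSP90, read 11.26 and 11.07 on the wild type arrays and 9.90 and 10.39 on the CANT1 arrays, a difference of -1.01 (SE 0.14, adjusted p = 0.000469). HSPA8, the constitutive HSP70, read 14.69 and 14.60 on the wild type arrays and 13.80 and 13.81 on the CANT1 arrays, a difference of -0.84 (SE 0.088, adjusted p = 6.73e-05). STIP1, which passes clients from HSP70 to HSP90, went from 11.15 and 11.17 to 10.31 and 10.45 (-0.78 (SE 0.091, adjusted p = 0.000134)), and CRYAB, a small heat shock protein, from 12.78 and 12.66 to 11.95 and 12.11 (-0.69 (SE 0.14, adjusted p = 0.00479)). The wild type arrays were the higher ones in each, as in 27.9% of all tested genes. BAG3, an HSP70 cochaperone of selective autophagy, rose by 1.06 (SE 0.10, adjusted p = 3.29e-05), and HSPA4L, an HSP110-type chaperone that entered through the CANT1 arrays only, by 1.44 (SE 0.19, adjusted p = 0.000279). Without 1 array the decreases numbered at least 8.

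Heat shock factor binds inverted repeats of GAA. The HSPA8 promoter is shown for its matches to GAANNTTC, in capitals, over the 250 bases before the start at chr11:123062137-123062386 (minus strand, GRCh38.p14).
HSPA8: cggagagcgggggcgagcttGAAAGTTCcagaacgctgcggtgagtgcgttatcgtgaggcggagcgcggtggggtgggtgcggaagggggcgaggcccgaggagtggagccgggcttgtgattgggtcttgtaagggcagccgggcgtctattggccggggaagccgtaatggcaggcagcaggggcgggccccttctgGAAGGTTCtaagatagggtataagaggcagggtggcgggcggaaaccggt
These letters were in 12 of 25 list members with a promoter (48.0%), against 6.67% of the 9701 genes. Of the 10 members that fell and had a promoter 6 held them, and of the 3 that rose 0 did.

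Of 27 proteasome subunits 7 fell (25.9%) and 0 rose (0 also unadjusted), at a median of -0.16. PSMC3, an ATPase of the 19S cap, went from 11.83 and 11.93 to 11.22 and 11.24 (-0.65 (SE 0.11, adjusted p = 0.00183)). The 7 became 4 without either wild type array or CANT1 replicate 2, and in replicate 1 the list's median was 0.54. The 34 genes of the unfolded protein response and ATF4 were mixed, with 4 higher (11.8%) and 5 lower (14.7%). Of all tested genes 14.4% rose and 10.1% fell. SLC7A11, the cystine transporter, rose by 0.99 (SE 0.11, adjusted p = 0.000124) and HERPUD1, a factor of endoplasmic reticulum degradation, by 0.81 (SE 0.14, adjusted p = 0.0019). SHMT2, a mitochondrial serine enzyme, fell by 0.53 (SE 0.089, adjusted p = 0.00146) and CALR, the chaperone calreticulin, by 0.52 (SE 0.089, adjusted p = 0.00162).

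Interferon-stimulated genes were higher in part. Of 33 tested 12 rose (36.4%) and 1 fell (3.03%), against 14.4% and 10.1% of all tested genes, at a median of 0.29. Of the 33, 2 passed the filter through the arrays of 1 group only. BST2, the virus tether tetherin, read 7.82 and 7.73 on the wild type arrays and 11.16 and 11.45 on the CANT1 arrays, a 11.6-fold difference with a log2 value of 3.53 (SE 0.11, adjusted p = 4.71e-09), although its 4 probe sets ran from 0.059 to 3.53. IFI6, an antiviral protein of the endoplasmic reticulum, read 10.09 and 10.35 on the wild type arrays and 11.03 and 11.68 on the CANT1 arrays, a difference of 1.13 (SE 0.17, adjusted p = 0.000813). IFITM1 and IFITM3, which block viral entry, rose by 1.14 (SE 0.15, adjusted p = 0.0003) and 0.72 (SE 0.11, adjusted p = 0.000893). In each of the 4 the CANT1 arrays were the higher ones, as in 36.6% of all tested genes. PLSCR1, a scramblase, fell by 0.37 (SE 0.099, adjusted p = 0.0185), a call lost without either wild type array or CANT1 replicate 2 (adjusted p = 0.075 to 0.147). The count of 12 was 5 without wild type replicate 3, 6 without CANT1 replicate 2, 7 without CANT1 replicate 3 and 7 with the values as deposited. In replicate 1, BST2 differed by 1.00, IFI6 by 1.41, IFITM3 by 2.49 and IFITM1 by -2.74.

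Interferon acts on such genes through the response element bound by STAT and IRF factors, searched here as GAAANNGAA. The BST2 promoter, over the 250 bases before the start at chr19:17405631-17405880 (minus strand, GRCh38.p14), and that of IFI6 at chr1:27672193-27672442 (minus strand) are shown with these matches in capitals, since both genes rose by more than 1 and hold more than 1 match.
BST2: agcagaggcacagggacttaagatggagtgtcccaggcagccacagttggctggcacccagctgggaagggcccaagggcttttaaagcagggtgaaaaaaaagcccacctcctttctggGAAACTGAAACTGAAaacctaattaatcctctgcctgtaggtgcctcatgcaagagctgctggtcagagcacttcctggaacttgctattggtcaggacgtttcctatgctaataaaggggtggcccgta
IFI6: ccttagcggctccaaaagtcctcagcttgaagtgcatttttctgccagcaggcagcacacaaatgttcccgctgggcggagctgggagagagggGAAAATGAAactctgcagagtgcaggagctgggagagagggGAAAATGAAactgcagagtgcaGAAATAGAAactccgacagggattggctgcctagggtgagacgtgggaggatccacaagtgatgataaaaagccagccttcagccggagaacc
BST2 has 2 matches that overlap by 3 bases and IFI6 has 3. On either strand the letters were in 20 of 27 list members with a promoter (74.1%), against 8.32% of the 9701 genes. Of the 10 members that rose and had a promoter 6 held them.

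HLA class II genes rose in the majority, while class I and peptide loading genes went both ways. Of 10 class II genes and regulators 6 rose (60.0%) and 0 fell (0 also unadjusted), at a median of 0.36. Among all tested genes 14.4% rose and 10.1% fell. HLA-DPA1, the alpha chain of DP, read 8.51 and 8.25 on the wild type arrays and 9.72 and 9.56 on the CANT1 arrays, a difference of 1.26 (SE 0.13, adjusted p = 5.03e-05). HLA-DMB and HLA-DMA, the 2 chains of the peptide exchanger, rose by 1.15 (SE 0.10, adjusted p = 1.78e-05) and 0.74 (SE 0.12, adjusted p = 0.00125). Of 20 class I and peptide loading genes 4 rose and 3 fell. HLA-B read 11.13 and 11.06 on the wild type arrays and 12.58 and 12.59 on the CANT1 arrays, a difference of 1.49 (SE 0.16, adjusted p = 8.57e-05), and HLA-C rose by 0.87 (SE 0.12, adjusted p = 0.000453). NLRC5, the transactivator of class I genes, rose by 0.99 (SE 0.14, adjusted p = 0.000568). The CANT1 arrays lay above the wild type arrays in all of these, as in 36.6% of all tested genes. HLA genes are near copies of one another, and without probe sets of the kinds that can bind related transcripts 0 class I and 3 class II genes were called higher. The class II count was 3 without CANT1 replicate 2 and 3 with the values as deposited, and the 3 class I decreases became 1 without wild type replicate 3 or CANT1 replicate 2.

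Some targets of ERK and immediate early genes were higher. In the first group 11 of 22 members did not pass, and in the second 14 of 25. Of 22 ERK phosphatases, sprouty family and ETS genes 9 rose (40.9%) and 2 fell (9.09%), at a median of 0.19. Among all tested genes 14.4% rose and 10.1% fell. SPRY4, a feedback inhibitor of receptor signalling, read 10.47 and 10.52 on the wild type arrays and 11.64 and 11.32 on the CANT1 arrays, a difference of 0.99 (SE 0.14, adjusted p = 0.000467). DUSP6, the phosphatase of ERK, went from 9.94 and 9.84 to 10.57 and 10.80 (0.80 (SE 0.15, adjusted p = 0.00255)). Of 25 immediate early and AP-1 genes 8 rose and 3 fell. EGR1, a zinc finger factor induced within minutes of a stimulus, read 6.83 and 6.95 on the wild type arrays and 9.20 and 9.27 on the CANT1 arrays, a difference of 2.35 (SE 0.13, adjusted p = 6.29e-07). JUN, a subunit of AP-1, read 7.76 and 7.77 on the wild type arrays and 9.56 and 9.58 on the CANT1 arrays, a difference of 1.81 (SE 0.11, adjusted p = 8.04e-07). EGR1 entered through the CANT1 arrays only, and both genes were bright on the wild type array of replicate 1, at 11.17 and 11.53. IER3, an early survival gene, rose by 1.08 (SE 0.14, adjusted p = 0.000316), and KLF6, a zinc finger growth suppressor, fell by 0.94 (SE 0.098, adjusted p = 6.11e-05). The 3 early gene decreases became 1 without wild type replicate 3 or CANT1 replicate 3.

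Among matrix genes, 12 of 33 integrins, laminins and matrix glycoproteins rose (36.4%) and 3 fell (9.09%), at a median of 0.17. The shares of all tested genes were 14.4% and 10.1%. EMILIN1, an elastic fibre glycoprotein, read 7.65 and 8.0 on the wild type arrays and 9.82 and 9.78 on the CANT1 arrays, a difference of 1.97 (SE 0.13, adjusted p = 2.4e-06). ITGB3, the beta chain of the vitronectin receptor, read 11.26 and 11.23 on the wild type arrays and 12.38 and 12.34 on the CANT1 arrays, a difference of 1.12 (SE 0.19, adjusted p = 0.00182). LAMA4, a laminin chain of vessels, went from 9.86 and 9.88 to 11.03 and 10.81 (1.05 (SE 0.13, adjusted p = 0.000235)), and ITGA3, a laminin receptor chain, from 7.85 and 7.84 to 9.01 and 8.54 (0.93 (SE 0.14, adjusted p = 0.000872)). NID1, which links laminin to collagen, entered through the CANT1 arrays only and rose by 2.08 (SE 0.14, adjusted p = 2.65e-06), with its 3 probe sets from 0.025 to 2.08. The laminin chain LAMA1 and the integrin chain ITGA4 fell by 0.70 (SE 0.10, adjusted p = 0.000672) and 0.67 (SE 0.11, adjusted p = 0.00156). None of these had overlapping groups, an order shared by 36.6% (higher) and 27.9% (lower) of all tested genes.

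Of 21 collagen chains and enzymes 5 rose (23.8%) and 2 fell (9.52%), against 14.4% and 10.1% of all tested genes. COL7A1, the anchoring fibril collagen, rose by 0.84 (SE 0.094, adjusted p = 0.000107) and COL4A2, a basement membrane chain, by 0.81 (SE 0.12, adjusted p = 0.000516). The 5 increases became 2 without wild type replicate 3, 3 without CANT1 replicate 2 and 3 with the values as deposited. Of 28 proteases and inhibitors 7 rose and 2 fell, and the 7 became 4 without wild type replicate 2. ADAMTS4, an aggrecanase, went from 7.51 and 7.61 to 8.67 and 8.59 (1.07 (SE 0.099, adjusted p = 2.78e-05)), and MMP14, a membrane collagenase, from 11.86 and 12.04 to 11.35 and 11.44 (-0.56 (SE 0.11, adjusted p = 0.00452)). Of 12 EMT factors, cadherins and filaments 2 rose and 3 fell. ZEB1, a repressor of epithelial genes, rose by 0.86 (SE 0.093, adjusted p = 7.88e-05) and NES, the filament nestin, fell by 1.02 (SE 0.11, adjusted p = 6.23e-05), and the 3 decreases became 1 without CANT1 replicate 2.

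Wnt genes rose in 6 of 27 cases (22.2%) and fell in 0 (1 unadjusted), at a median of 0.16. Beside the antagonist SFRP1, the receptors FZD7 and FZD6 went from 9.12 and 9.18 to 10.42 and 10.31 (1.21 (SE 0.13, adjusted p = 6.92e-05)) and from 10.24 and 9.56 to 11.04 and 11.16 (1.20 (SE 0.17, adjusted p = 0.000605)). Of 29 TGF-beta and BMP genes 8 rose (27.6%) and 3 fell (10.3%), against 14.4% and 10.1% of all tested genes. BMP6, a ligand that entered through the CANT1 arrays only, went from 6.55 and 6.50 to 7.96 and 7.84 (1.37 (SE 0.093, adjusted p = 2.63e-06)), and SMAD3, the transducer of TGF-beta, from 7.75 and 8.06 to 9.11 and 8.87 (1.09 (SE 0.15, adjusted p = 0.000535)). ID3, a target of BMP, fell by 0.82 (SE 0.10, adjusted p = 0.00027) and LTBP1, which binds latent TGF-beta, by 0.77 (SE 0.14, adjusted p = 0.00265). Of 20 YAP and TEAD genes 4 rose (20.0%) and 1 fell (5.0%), and 3 of the 20 passed the filter through the arrays of 1 group only. Among those that rose were WWTR1, the coactivator TAZ (1.08 (SE 0.12, adjusted p = 0.000111)), and CCN2, a matricellular target that entered through the CANT1 arrays only (1.25 (SE 0.088, adjusted p = 3.23e-06)).

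Neuronal and retinoid genes were among the larger changes. Of 24 genes of neuronal cytoskeleton and vesicles 7 rose (29.2%) and 3 fell (12.5%), at a median of 0.17. Of all tested genes 14.4% rose and 10.1% fell. NEFL, the light neurofilament, read 9.60 and 9.83 on the wild type arrays and 11.60 and 11.57 on the CANT1 arrays, a difference of 1.87 (SE 0.16, adjusted p = 1.54e-05). MAP2, a dendritic microtubule protein, rose by 0.99 (SE 0.15, adjusted p = 0.00067) and DPYSL3, a growth cone protein that entered through the CANT1 arrays only, by 0.85 (SE 0.14, adjusted p = 0.00129), while MAPT, the microtubule protein tau, fell by 0.58 (SE 0.12, adjusted p = 0.00415). Of 15 retinoid genes 5 rose and 1 fell, at a median of -0.040. Beside ALDH1A3, DHRS3, which returns retinaldehyde to retinol, read 8.90 and 8.99 on the wild type arrays and 10.73 and 10.49 on the CANT1 arrays, a difference of 1.66 (SE 0.16, adjusted p = 3.17e-05), and the retinoic acid receptor RARB rose by 0.89 (SE 0.12, adjusted p = 0.000415). Of 12 carbonic anhydrase and bicarbonate genes 3 rose and 1 fell, CA2 against CA14, a membrane carbonic anhydrase that fell by 0.97 (SE 0.095, adjusted p = 3.98e-05). Of 22 axon guidance genes 5 rose (22.7%), led by the ligand SLIT2 (1.92 (SE 0.14, adjusted p = 3.65e-06), entered through the CANT1 arrays only), and 4 fell (18.2%). Those 4 became 2 without wild type replicate 2 or CANT1 replicate 3, 1 without wild type replicate 3 and 0 without CANT1 replicate 2, and the 5 became 3 without CANT1 replicate 2.

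Apolipoproteins rose in 5 of 10 cases and fell in 1, at a median of 0.42. APOE, a ligand of lipoprotein receptors, read 11.71 and 11.96 on the wild type arrays and 12.91 and 12.68 on the CANT1 arrays, a difference of 0.96 (SE 0.15, adjusted p = 0.000987). Its neighbour APOC1 rose by 0.84 (SE 0.21, adjusted p = 0.0134), a call lost without any 1 of the 4 OCM1 arrays (adjusted p = 0.059 to 0.071). CLU, the extracellular chaperone clusterin, entered through the CANT1 arrays only and rose by 0.69 (SE 0.11, adjusted p = 0.000907). Of the 5, 2 were called without probe sets of the kinds that can bind related transcripts.

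Of 20 p53 pathway genes 8 rose (40.0%) and 2 fell. PHLDA3, an inhibitor of AKT, read 8.25 and 8.51 on the wild type arrays and 9.56 and 9.21 on the CANT1 arrays, a difference of 1.00 (SE 0.13, adjusted p = 0.000316). SESN2, a stress sensor, rose by 0.84 (SE 0.096, adjusted p = 0.000124), and PLK2, a kinase of the p53 response, fell by 1.08 (SE 0.10, adjusted p = 3.14e-05). The 8 became 2 without CANT1 replicate 2, 3 without either wild type array, and 5 without CANT1 replicate 3 or with the values as deposited, and 4 of 20 lay above zero in replicate 1. Of 30 apoptosis genes 5 rose (16.7%) and 6 fell (20.0%), against 14.4% and 10.1% of all tested genes. The BH3-only genes PMAIP1 and BCL2L11 rose by 0.88 (SE 0.11, adjusted p = 0.000189) and 0.76 (SE 0.11, adjusted p = 0.000768). The inhibitors BCL2A1 and BIRC7 fell by 0.67 (SE 0.11, adjusted p = 0.00159) and 0.83 (SE 0.13, adjusted p = 0.00103), and the inflammatory caspase CASP1 by 0.98 (SE 0.17, adjusted p = 0.00174).

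Lysosome and autophagy genes rose in 7 of 29 cases (24.1%) and fell in 0 (0 also unadjusted), at a median of 0.13. PSAP, the precursor of sphingolipid activators, went from 13.61 and 13.57 to 14.39 and 14.35 (0.78 (SE 0.092, adjusted p = 0.000151)), and CTSA, a lysosomal carboxypeptidase, from 12.81 and 12.86 to 13.67 and 13.39 (0.70 (SE 0.11, adjusted p = 0.00106)). The 7 became 4 without wild type replicate 2 or CANT1 replicate 2. Of 37 hypoxia and glycolysis genes 3 rose (8.11%) and 8 fell (21.6%), against 14.4% and 10.1% of all tested genes. ARRDC4, an arrestin that curbs glucose uptake, rose by 1.75 (SE 0.096, adjusted p = 5.35e-07), and HK2, a hexokinase, fell by 0.49 (SE 0.10, adjusted p = 0.00488). The 8 became 5 without either wild type array, 3 without CANT1 replicate 2 and 4 without CANT1 replicate 3. Of 18 NF-kB and cytokine genes 1 rose and 3 fell, with NFKBIZ, a nuclear inhibitor of that family, at -1.20 (SE 0.11, adjusted p = 3.36e-05).

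Few members of the large housekeeping groups passed, while 14.4% of all tested genes rose and 10.1% fell. Of 64 ribosomal protein genes 1 rose and 0 fell, at a median of 0.057, and of 52 respiratory chain genes 5 rose and 1 fell. The 5 became 2 without wild type replicate 2, 0 without wild type replicate 3, 1 without CANT1 replicate 2 and 0 without CANT1 replicate 3. RPL27A was the ribosomal gene that rose, by 0.49 (SE 0.092, adjusted p = 0.00302), and it has 1 probe set. Of 29 polycomb, DNA methylation and HDAC genes 2 rose and 2 fell, TET2, which oxidises methylcytosine, by 0.68 (SE 0.099, adjusted p = 0.000635). Of 18 receptor kinases 2 rose, and of 7 cancer-testis genes 0 passed by limma, with 1 lower at an unadjusted p under 0.05. Of 17 fatty acid genes 2 rose and 2 fell, and of 15 genes of the uveal melanoma class assay and its field 3 rose and 1 fell. Of 8 complement, acute phase and inhibitor genes 3 rose, SERPINA3 and A2M among them.

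**Figure D3:**
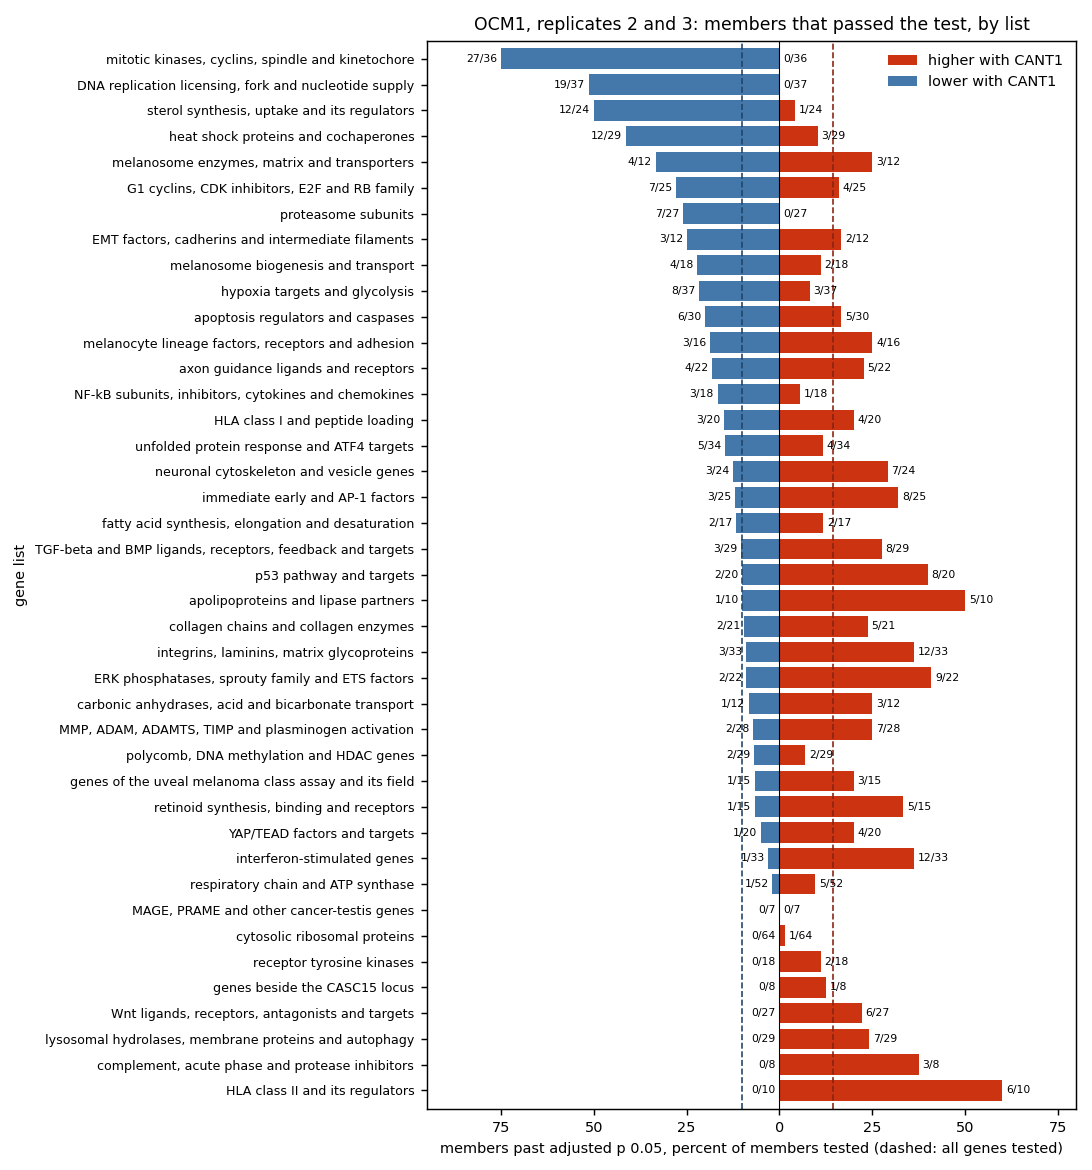
Share of each list's tested members, in percent, that passed an adjusted p of 0.05 with higher (red, to the right) or lower (blue, to the left) levels in OCM1 CANT1 cells of replicates 2 and 3, with the counts printed at the bars. Dashed lines mark the share of all tested genes, 14.4% higher and 10.1% lower; mitotic, replication, sterol and heat shock genes extend farthest to the lower side and HLA class II genes farthest to the higher side.

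Genes beside the CASC15 locus were looked at because CANT1 comes from it. Of 17 on the array 8 were bright enough to be tested, 1 rose (12.5%) and 0 fell. Among all tested genes 14.4% rose and 10.1% fell, so the share that rose was near that of all tested genes. ID4, an inhibitor of basic helix-loop-helix factors, rose by 0.32 (SE 0.099, adjusted p = 0.0359), a call lost without any 1 of the 4 arrays (adjusted p = 0.059 to 0.20). SOX4 read 11.76 and 11.72 on the wild type arrays and 11.95 and 11.97 on the CANT1 arrays and did not pass (0.22 (SE 0.10, adjusted p = 0.156)). CDKAL1, a tRNA-modifying enzyme, stood at 0.17, E2F3, a cell cycle transcription factor, at 0.047, and MBOAT1, a lipid acyltransferase, at -0.013. MRS2, a mitochondrial magnesium channel, stood at 0.10, TDP2, a DNA repair phosphodiesterase, at 0.068, and ACOT13, a thioesterase, at 0.26. ACOT13 passed without wild type replicate 2 (0.50, adjusted p = 0.027). The other 9, CASC15, ALDH5A1, DCDC2, GPLD1, HDGFL1, KAAG1, KIAA0319, NRSN1 and PRL, did not reach the signal filter. SOX4 was lower with CANT1 in replicate 1, at 13.09 on the wild type and 11.67 on the CANT1 array.

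The same comparison in MUM2B, wild type against CANT1 cells on 4 arrays of replicates 2 and 3, shows where OCM1 differed from another line. In MUM2B, 1608 of the 11771 genes (13.7%) were higher with CANT1 and 1231 (10.5%) lower, and 931 genes were called in both lines, 619 with the same sign and 312 with opposite signs. The difference between the lines itself passed for 1363 genes as higher in OCM1 (11.6%) and for 1224 as lower (10.4%). Of the 2882 genes called in OCM1, 1414 also passed for that difference. Without CANT1 replicate 2 of OCM1 the lines differed for 903 and 801 genes, and the lower count was 767 without wild type replicate 2 and 795 without CANT1 replicate 3 of MUM2B, and 738 without wild type replicate 3 of OCM1.

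The 4 largest OCM1 increases other than BST2 did not pass in MUM2B. The MUM2B difference was 0.06 for SERPINA3, -0.15 for SYTL2, 0.036 for APOC2 and -0.025 for SFRP1, with adjusted p from 0.353 to 0.886. The lines differed by 5.23 (SE 0.27, adjusted p = 8.15e-07) for SERPINA3, 4.99 (SE 0.16, adjusted p = 1.33e-08) for SYTL2, 4.02 (SE 0.13, adjusted p = 1.33e-08) for APOC2 and 3.20 (SE 0.13, adjusted p = 1.56e-07) for SFRP1. SFRP1 was already bright in MUM2B, at 12.73 and 12.70 on the wild type arrays of replicates 2 and 3. BST2 rose in both lines, by 0.37 in MUM2B (adjusted p = 0.0322), and its effects differed by 3.16 (SE 0.16, adjusted p = 7.63e-07). MMP8 stood at -0.022 in MUM2B, a difference between lines of -3.11 (SE 0.22, adjusted p = 1.1e-05).

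Other differences between the lines came from MUM2B. TXNIP, an arrestin that curbs glucose uptake, stood at 0.15 in OCM1 (adjusted p = 0.862) and rose by 3.22 in MUM2B, a difference of -3.07 (SE 0.70, adjusted p = 0.0103). KLF9, a glucocorticoid-induced zinc finger factor, stood at -0.057 in OCM1 (adjusted p = 0.914) and rose by 2.28 in MUM2B, a difference of -2.34 (SE 0.42, adjusted p = 0.00295). The sterol genes INSIG1 and HMGCS1, which fell in OCM1, were higher with CANT1 in MUM2B. INSIG1 rose by 1.12 in MUM2B (adjusted p = 0.0036) and HMGCS1 by 1.30 (adjusted p = 0.00183), and the lines differed by -2.65 (SE 0.29, adjusted p = 0.000204) and -2.27 (SE 0.30, adjusted p = 0.000538). Of the 24 sterol genes 17 rose and 1 fell in MUM2B, and 14 passed the difference between the lines, all lower in OCM1. Among all tested genes 13.7% rose and 10.5% fell in MUM2B, and 10.4% passed the difference as lower in OCM1.

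Among all tested genes 13.7% rose and 10.5% fell in MUM2B. By the test of the difference 11.6% were higher and 10.4% lower in OCM1. Of the 36 mitotic genes, 27 of which fell in OCM1, 1 rose and 2 fell in MUM2B, and 12 passed the difference between the lines, all lower in OCM1. Of the 37 replication genes 19 fell in OCM1 and 28 in MUM2B, where the median was -0.58. The difference passed for 3 of them in each direction, no larger a share than of all tested genes. Of the 33 interferon genes 12 rose in OCM1 (5 without wild type replicate 3) and 16 in MUM2B, with 4 higher and 11 lower in OCM1 by the test of the difference. HLA-B rose by 1.35 in MUM2B (adjusted p = 0.000566) and EGR1 by 2.04 (adjusted p = 2.41e-05), and neither passed the difference (adjusted p = 0.718 and 0.271). JUN, at -0.087 in MUM2B, did pass it (1.89 (SE 0.15, adjusted p = 2.56e-05)).

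**Figure D4:**
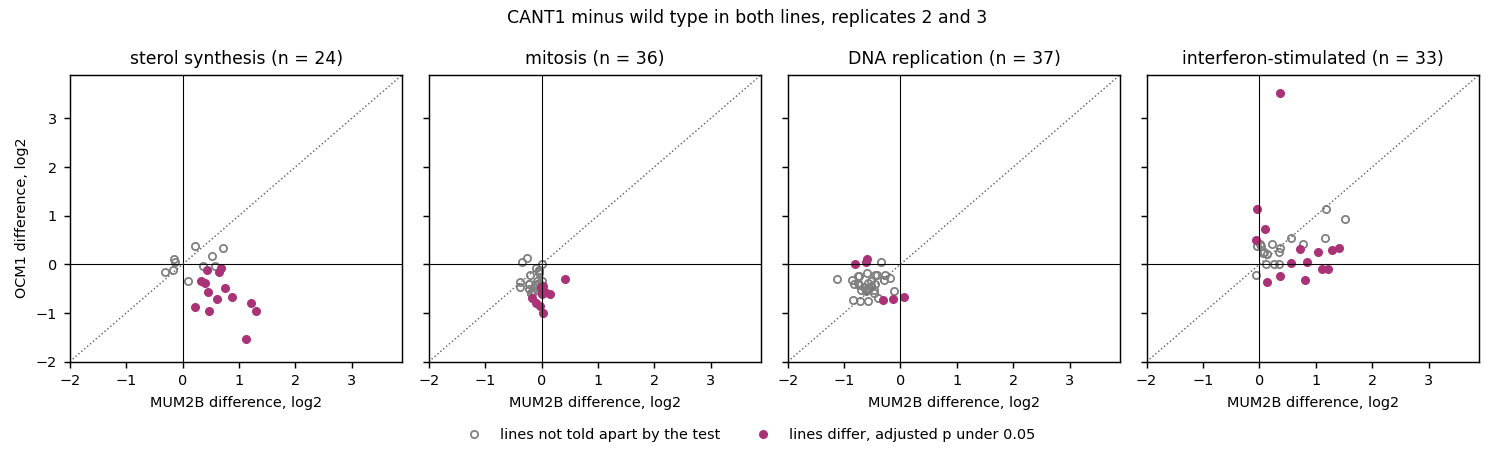
CANT1 minus wild type in OCM1 (vertical, log2) against MUM2B (horizontal, log2) in replicates 2 and 3, 1 point per tested member of 4 lists; the dotted line marks equal differences and filled points passed the test of the difference between the lines. Sterol members lie to the lower right, mitotic members below zero in OCM1 and near zero in MUM2B, and replication members below zero in both.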

How the data were processed

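Total RNA of OCM1 and MUM2B cells was hybridised to PrimeView arrays, and 12 arrays in 4 groups of 3 were used. The deposited values, 1 per probe set and array, were read as log2 from their range; the submitters' processing notes name MAS5 and the log base and normalization are not given in the sources used here. Deposited medians were 6.38 to 6.45 on arrays of replicates 2 and 3 and 6.85 to 6.88 on those of replicate 1. Scaling each array to a common mean would remove a global shift. Each deposited log2 value was raised as a power of 2, scaled to a 2% trimmed mean of 500 per array, and taken to log2 after adding 32. Of 49395 probe sets, 102 were controls, 44988 named 1 gene in the platform annotation, 1832 several and 2473 none; 44961 were matched to RefSeq gene names, giving 18132 genes, each by its brightest probe set.

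Genes reaching a signal of 100 on 2 or more of the 4 OCM1 arrays of replicates 2 and 3 were tested. The lmFit and eBayes functions of limma 3.58.1 (R 4.3.3) were used, with 1 term per group over the 8 arrays of replicates 2 and 3, leaving 4 residual degrees of freedom, and Benjamini-Hochberg adjustment at 0.05 over all 11771 genes. The median standard error was 0.106. The number of arrays limits the precision. The replicate 1 pair has 1 array a side and no test. Named genes were the 12 largest changes in each direction, up to 6 per direction with the same or the opposite direction in replicate 1, the 5 largest differences between lines in each direction, up to 5 members per direction of each list, and every gene beside CASC15. Members and lists were chosen with earlier results of these data known. Promoters are RefSeq windows of GRCh38.p14, matched for 9701 of the 11771 tested genes. Scripts were tested on simulated data. The alternatives were other scalings, offsets, filters, probe set rules and models, and each array left out; the crossed replicate block was added after seeing the data. Genes that reveal sex are not reported here.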

Additional observations from a re-analysis of the deposited data

Results flagged for a closer look

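The effect of CANT1 differed between OCM1 and MUM2B, by the test of that difference in replicates 2 and 3, for the 10 genes named by the rule. It was higher in OCM1 by 5.23 for the protease inhibitor SERPINA3, 4.99 for the vesicle adaptor SYTL2, 4.02 for APOC2, 3.20 for the Wnt antagonist SFRP1 and 3.16 for tetherin, BST2, as log2 values. On the lower side the difference was -3.11 for the collagenase MMP8, -3.07 for TXNIP, -2.65 for INSIG1, -2.34 for KLF9 and -2.27 for HMGCS1. The adjusted p by limma ran from 1.33e-08 for APOC2 to 0.0103 for TXNIP. Both CANT1 arrays of OCM1 lay above both wild type arrays for the first 5 genes, as in 36.6% of all tested genes. They lay below them for MMP8, INSIG1 and HMGCS1, as in 27.9%, while TXNIP and KLF9 overlapped in OCM1 and rose in MUM2B. The genes were picked by size of difference, so this order is no further support. SYTL2 and APOC2 passed the filter through the CANT1 arrays alone and MMP8 through the wild type arrays only. Groups of 3 arrays or fewer allowed no look at single arrays far from their group by a set criterion.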

How the results depend on the processing

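The counts of 1690 higher and 1192 lower genes, and of 1363 higher and 1224 lower for the difference between lines, depended on the arrays in the fit. With all 12 arrays and a term for the labelled set they were 15 and 3 (5 and 1 for the difference), and 104 and 40 (33 and 7) with the OCM1 wild type replicate 1 array left out of that fit. With at least a 2-fold change required they were 177 and 37 (205 and 198). Leaving out 1 of the 8 arrays gave 929 to 1773 higher and 523 to 1267 lower, and 903 to 1391 and 738 to 1291 for the difference. An arm left with 1 array was assumed to vary like the other groups.

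Deviations of same-numbered arrays correlated at -0.15 between the OCM1 groups and at -0.15 to 0.24 over the 6 pairs of groups, so the numbers were not taken to pair the arrays. With the replicate number as a block 2979 genes were called, 2822 of them among the 2882. It changed none of the calls of the single genes followed through the alternatives, although collagen genes higher (5) were 4. With crossed numbers, added after seeing the data, 3083 were called. On OCM1 arrays alone 3006 were called, 2754 of them shared, with quantile normalization 3023 and with the values as deposited 2591.

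Of the single genes followed through the alternatives, signs turned for 23 past the threshold when all 12 arrays, the replicate 1 pair among them, entered the fit. The log2 values there were -0.28 for CA2, -0.63 for UCHL1, 0.30 for KCNAB1, -0.71 for GJA1, -0.075 for CLU, 0.70 for GPNMB, 0.53 for MYO5A, -0.18 for CDKN1A, -0.55 for SESN2, 0.65 for CRYAB, 0.086 for CALR, -0.16 for IFITM1, 0.18 for PLSCR1, -0.38 for JUN, -0.81 for NID1, 0.092 for LAMA1, 0.015 for ITGA4, 0.20 for MMP14, 0.19 for CA14, 1.11 for BCL2A1, -0.39 for PMAIP1, -0.048 for TET2 and -0.041 for ID4. Among those that had not passed, the sign also differed there for SOX4 (-0.33), E2F3 (-0.20), MBOAT1 (0.76), TDP2 (-0.042), TXNIP (-0.20) and MLANA (0.85). The cause was not tested.

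In the fit of all 12 arrays the lower counts of mitotic (27), replication (19), sterol (12) and heat shock genes (12) were all 0, also with the OCM1 wild type replicate 1 array left out. No list count was above 1 with all 12 or above 2 with that array left out. Of the other list counts under the remaining alternatives, respiratory chain genes higher (5) were 1 with the values as deposited, 2 with only OCM1 arrays, 3 with quantile normalization, with the mean of probe sets or on unique probe sets (those ending in neither _x_at nor _s_at), and 8 with an intensity trend. On unique probe sets apolipoproteins higher (5) were 2, early genes lower (3) were 1, and hypoxia and glycolysis genes lower (8) were 5. Unfolded protein response genes lower (5) were 8 with an intensity trend or on unique probe sets and 9 with the mean of probe sets, and proteasome subunits lower (7) were 11 with an intensity trend. Pigment genes higher (3) were 1 with the values as deposited, hypoxia and glycolysis genes higher (3) were 5 with only OCM1 arrays or crossed numbers, NF-kB genes lower (3) were 5 with no filter, and complement genes higher (3) were 5 with the mean of probe sets. With the values as deposited APOC1, INSIG2 and ID4 lost their calls, and on unique probe sets INSIG2 did.

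On the sense strand alone, motif shares were 64.5% for TTTGAA and 45.2% for CCAAT in mitotic promoters, 48.1% for GAAANNGAA in interferon promoters and 36.4% for CCAAT in sterol promoters, against 8.10%, 25.4%, 3.94% and 25.4% of all.

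Depth in the sense of counts does not apply to arrays, and genes under the signal filter were not tested.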
